A study of Rattus norvegicus with 4 samples.

Results

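Cells that die by apoptosis or pyroptosis do so through caspases, proteases made as inactive precursors and switched on in protein complexes. Death receptors such as Tnfrsf1a recruit adaptors, among them Fadd, which binds and activates Casp8, while Apaf1 builds the complex that activates Casp9 after cytochrome c leaves mitochondria. Casp1 and Casp4 belong to the inflammatory branch, which matures interleukin 1 and opens pores in the membrane. The inhibitor of apoptosis proteins (IAPs) Birc2 and Birc3 are ubiquitin ligases at the TNF receptor, and Xiap blocks caspases by binding them.

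These 9 genes were followed in cells from the pancreatic lymph nodes of BioBreeding rats, selected with the mast cell antibody AA4. Signal of other cell types was also present, as given below. Every probe set to which the platform annotation gives 1 of these gene symbols alone was taken, which gave 12 of 31042 non-control probe sets. Casp8, Apaf1 and Xiap had 2 probe sets each and the other genes 1 each. Of the 12 sets, 10 passed the filter on dim signal, and all 10 lay above it on all 4 arrays, so none entered the test through 1 pool alone. AA4 is an antibody against mast cell gangliosides of the rat.

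The diabetes-prone DRlyp/lyp rats (DP in the titles) carry the lyp mutation of Gimap5, which leaves them short of peripheral T cells, and the diabetes-resistant DR+/+ rats (DR in the titles) carry the normal gene. All animals were BioBreeding females at day 65. Cells of 8 animals were pooled per genotype, and each pool was amplified in duplicate for 2 Rat Genome 230 2.0 arrays. Each mean below is over the 2 arrays of 1 pool, with the SD, in linear signal units. The p-values therefore describe the spread between amplifications and arrays, no spread between animals can be had, and the number of arrays limits the precision.

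The 2 pools differed widely, and that is the setting of every result here. Gimap5 itself read 518.3 and 514.8 on the DRlyp/lyp arrays and 399.8 and 531.7 on the DR+/+ arrays (log2 difference 0.16, adjusted p = 0.362, limma), which checks neither the mutation nor the labels, since the place of its probe set was not analysed here. Of the T cell markers, 8 of 10 were higher in the DRlyp/lyp pool and the others, Cd28 and Trat1, stayed below the filter on all arrays. The summed T cell signal was 7504.2 and 7527.2 on the DRlyp/lyp arrays and 1484.8 and 1528.3 on the DR+/+ arrays, the opposite of the T cell shortage known for these rats, and the labels were kept as given. Of 9 macrophage markers, 1 was higher and 7 were lower (summed signal 7319.9 and 7385.6 on the DRlyp/lyp arrays, against 13294.7 and 14085.1 on the DR+/+ arrays). All 7 exocrine pancreas markers were higher (7473.7 and 7701.3 in DRlyp/lyp, against 173.5 and 184.3 in DR+/+). Among them, Cpa1, Cpb1 and Ctrb1 entered the test through the DRlyp/lyp arrays alone, so their calls could only be higher. Of 8 B cell markers 5 had a probe set, of which 0 were higher and 3 lower (6745.7 and 6946.7 in DRlyp/lyp, against 8448.3 and 9457.5 in DR+/+). Of 8 mast cell markers 2 were higher and 2 lower (2736.3 and 2613 in DRlyp/lyp, against 1740.9 and 1704.7 in DR+/+), with a median log2 difference of -0.05, and Kit stayed below the filter throughout. The difference in the mast cell sums lay in Mcpt1: without it, a step taken after its values were seen, the sums were 1071.5 and 1011.1 in DRlyp/lyp and 1072 and 1049.3 in DR+/+. Of 5 proliferation markers 4 were higher (4298.5 and 4168.8 in DRlyp/lyp, against 2912.1 and 3020.3 in DR+/+). The log2 difference between the 3′ and the 5′ control set of beta-actin, a sign of RNA length, was 4.43 and 4.55 on the DRlyp/lyp arrays and 3.01 and 3.10 on the DR+/+ arrays. The part of these shifts in the results below was not tested, and with bulk RNA fewer cells of a type and less RNA per cell cannot be told apart. T cell, B cell and macrophage markers gave signal in both pools, so a member's signal cannot be assigned to mast cells alone.

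Among the 10 tested probe sets, 1 was higher and 5 were lower in DRlyp/lyp cells than in DR+/+ cells (limma, threshold 0.05 after adjusting p over every tested probe set by Benjamini-Hochberg). They belong to 6 of the 9 genes, with Casp8 called on 1 of its 2 sets and not on the brighter one. Over all genes, taken by their brightest set, 42% were called, and on that measure Casp8 was not among the called members. Of all 16068 probe sets tested, 39.2% were called, 19.3% as higher and 19.9% as lower, so calls were common everywhere on these arrays. The median log2 difference, DRlyp/lyp minus DR+/+, was -0.33 over the 10 sets and -0.00050 over all probe sets tested. The arrays of the pools did not overlap for 8 of the 10 sets, against 70% of all probe sets tested. The members ran from Casp8, lower by 1.52 on one of its sets, to Fadd, higher by 0.94.

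**Figure D1:**
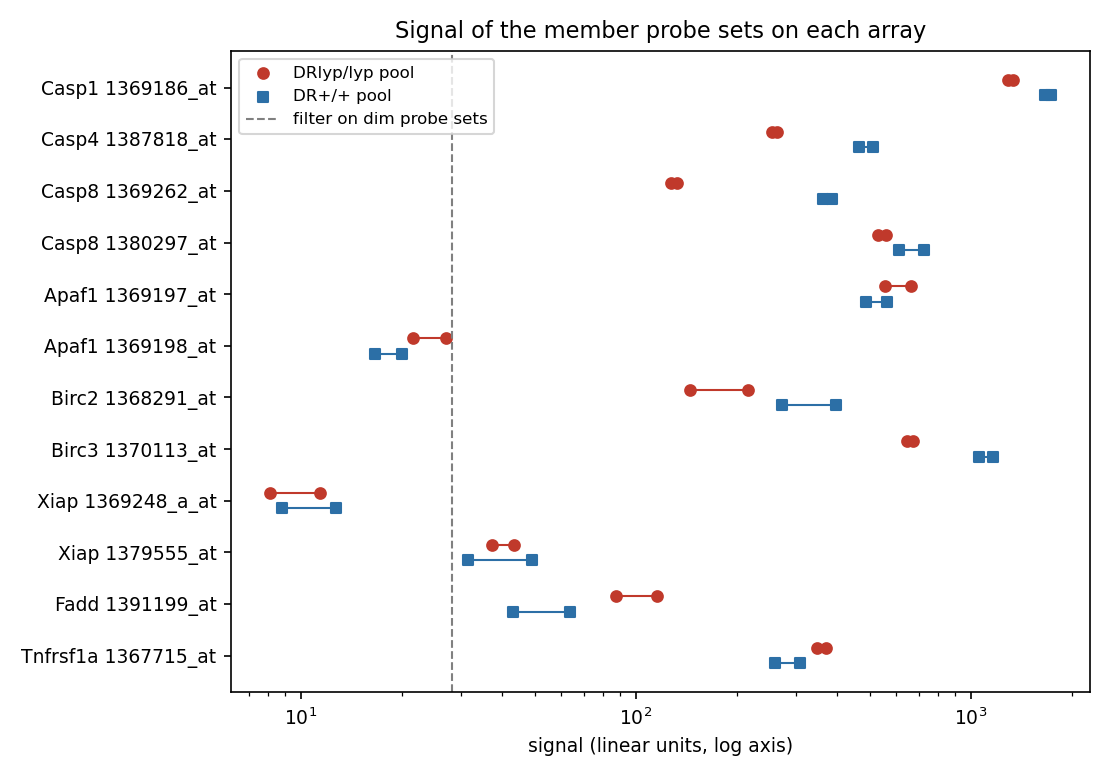
Signal of the 12 member probe sets on each of the 4 arrays (log axis, linear units), with DRlyp/lyp arrays as circles above DR+/+ arrays as squares and the filter at 28.3 dashed. The sets of Casp1, Casp4 and Birc3 and the set 1369262_at of Casp8 show gaps between the pools wider than either pair of arrays. For Apaf1 and Xiap, 1 set each lies below the filter on all arrays.

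**Figure D2:**
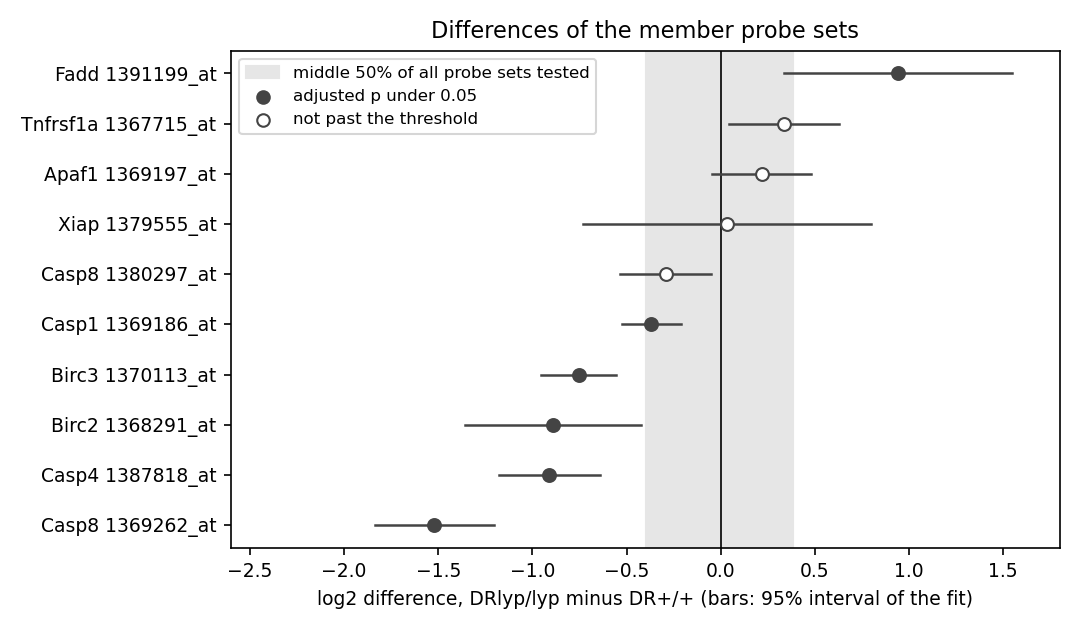
Log2 difference, DRlyp/lyp minus DR+/+, of the 10 tested member probe sets with the 95% interval of the fit; filled points passed an adjusted p of 0.05 and the grey band holds the middle 50% of all probe sets tested. Fadd (0.94) is the filled point on the right, and Casp1, Birc3, Birc2, Casp4 and 1 of the Casp8 sets (-1.52) are the filled points on the left.

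All 3 caspase genes had a lower probe set in the DRlyp/lyp pool, Casp8 on only 1 of its 2 sets. Casp1, the caspase of the inflammasome that cuts the precursors of interleukin 1 beta and interleukin 18, read 1294.5 and 1339.1 on the DRlyp/lyp arrays and 1670.4 and 1733.3 on the DR+/+ arrays. The arrays of the pools did not overlap, and the step was small beside those of the other called members, at 1.29-fold lower (log2 difference -0.37 ± 0.072, SE; adjusted p = 0.00167, limma). Casp4, known in the mouse as the sensor of bacterial lipopolysaccharide inside the cell, with Casp11 as an older name, read 254.6 and 264.5 on the DRlyp/lyp arrays, against 512.5 and 464.6 on the DR+/+ arrays. It was 1.88-fold lower (-0.91 ± 0.12, SE; adjusted p = 0.00014, limma). The call of Casp1 was lost without the filter on dim probe sets (adjusted p = 0.0527, limma) and without the intensity trend of the variance (adjusted p = 0.080, limma), while that of Casp4 held under all 12 alternatives run.

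Casp8, the initiator caspase of the death receptors, which also holds necroptosis in check, gave different sizes on its 2 probe sets. The set 1369262_at, designed on the RefSeq transcript NM_022277, read 127.7 and 132.4 on the DRlyp/lyp arrays and 384.2 and 362.5 on the DR+/+ arrays. Every DRlyp/lyp value was below every DR+/+ value, by 2.87-fold on average (-1.52 ± 0.15, SE; adjusted p = 1.16e-05, limma), and the call held under all 12 alternatives. The set 1380297_at, designed on the expressed sequence tag AW915533, read 530.4 and 557.8 on the DRlyp/lyp arrays and 610.7 and 726.9 on the DR+/+ arrays. Its difference of -0.29 (95% interval -0.53 to -0.051) did not pass the threshold (adjusted p = 0.0543, limma), although these arrays did not overlap either. The log2 difference between the sets on the same array, 1369262_at minus 1380297_at, was -2.05 and -2.07 on the DRlyp/lyp arrays and -0.67 and -1.0 on the DR+/+ arrays. The gap between the sets thus moved by -1.23 (DRlyp/lyp minus DR+/+), and DRlyp/lyp was also the pool with the larger 3′ minus 5′ gap of beta-actin; where the sets lie along the transcript was not analysed here, and the part of RNA length was not tested. The mean of both sets differed by -0.91 (adjusted p = 8.62e-05, limma). The set 1380297_at passed the threshold under 5 of 12 alternatives: without DR+/+ replicate 1 (-0.42, adjusted p = 0.0167, limma), with centring on the array median (-0.41, adjusted p = 0.0261, limma), with the filter raised to 164.7 (adjusted p = 0.0421, limma), with 50 added to every value (adjusted p = 0.0467, limma) and with the replicate block (adjusted p = 0.0201, limma). Its difference without DR+/+ replicate 2 was -0.17 (adjusted p = 0.244, limma).

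Of the members with a RefSeq promoter sequence (5 of 9, assembly GRCr8), Casp1 and Fadd are shown, a called member lower and the called member higher in the DRlyp/lyp pool. Each is the 250 bases before the gene start used in that table, which for both lies inside the longer span RefSeq gives the gene, 5′ to 3′ on the gene's strand, at chr8:10872580-10872829 on the plus strand for Casp1 and chr1:209174930-209175179 on the minus strand for Fadd. Capitals mark the match to the interferon response element in Casp1 and to the kB site in Fadd.
Casp1: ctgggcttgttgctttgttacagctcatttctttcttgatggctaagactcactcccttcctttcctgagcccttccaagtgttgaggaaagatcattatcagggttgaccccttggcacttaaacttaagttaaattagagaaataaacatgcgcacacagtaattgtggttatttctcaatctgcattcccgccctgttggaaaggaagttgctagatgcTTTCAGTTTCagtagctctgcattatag
Fadd: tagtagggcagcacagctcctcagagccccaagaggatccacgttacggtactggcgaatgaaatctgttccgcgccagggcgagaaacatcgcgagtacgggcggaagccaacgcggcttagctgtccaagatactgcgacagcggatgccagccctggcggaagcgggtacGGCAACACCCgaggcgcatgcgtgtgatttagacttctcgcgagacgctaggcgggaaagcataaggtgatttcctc

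Each window was searched on both strands for an interferon response element (GAAANNGAAA), a kB site (GGGNNNNNCC) and an interferon gamma activated element (TTCNNNGAA). The interferon response element was found in Casp1 alone among the 5 members, as TTTCAGTTTC on the reverse strand, starting 28 bases before the gene start. It is present in 3.4% of 33469 rat promoter windows of the same length. The kB letters were found in Casp1 (2 overlapping matches), Apaf1 (2) and Fadd (1) and are present in 42.3% of all windows, and the interferon gamma activated element, in 7.7% of all windows, was found in none of the 5. Birc2 and Tnfrsf1a held none of the 3 motifs. A match describes letters in a window and not a bound site.

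Birc2 and Birc3, the cellular IAPs that add ubiquitin to Ripk1 at the TNF receptor and hold back non-canonical NF-kB signalling, were both lower in the DRlyp/lyp pool. Birc3 read 644.5 and 673.4 on the DRlyp/lyp arrays, against 1168.5 and 1057.4 on the DR+/+ arrays. It was 1.69-fold lower (-0.75 ± 0.091, SE; adjusted p = 6.53e-05, limma) and stayed past the threshold under all 12 alternatives. Birc2 read 216.2 and 144.9 on the DRlyp/lyp arrays and 395 and 272.6 on the DR+/+ arrays. The pools did not overlap, but the arrays within each pool lay far apart, and the mean step of 1.85-fold lower (-0.89 ± 0.21, SE; adjusted p = 0.00614, limma) has a 95% interval of -1.36 to -0.42. It no longer passed without DRlyp/lyp replicate 2 (-0.60, adjusted p = 0.103, limma) and without DR+/+ replicate 1 (-0.62, adjusted p = 0.0776, limma), as well as without the filter (adjusted p = 0.283, limma) or the intensity trend (adjusted p = 0.0909, limma). RefSeq lists Birc2 among the older names of Birc3, and both are paralogs, so signal shared between their sets cannot be told apart here.

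Xiap, the IAP that binds and blocks caspases directly, was dim. Its set 1379555_at read 37.2 and 43.4 on the DRlyp/lyp arrays and 48.9 and 31.6 on the DR+/+ arrays, which enclose the DRlyp/lyp values. The difference was 0.03, with a 95% interval of -0.73 to 0.80 (adjusted p = 0.953, limma), and its sign turned with quantile normalization (-0.04), with centring on the array median (-0.08) and without DRlyp/lyp replicate 2 (-0.08) or DR+/+ replicate 2 (-0.28). The interval is too wide to tell whether Xiap moved with the other IAPs. The second set, 1369248_a_at, read 11.4 and 8.1 on the DRlyp/lyp arrays, against 12.7 and 8.8 on the DR+/+ arrays, below the filter of 28.3 on every array, and was not tested.

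Fadd, the adaptor that joins death receptors to Casp8, was the called member higher in the DRlyp/lyp pool. It read 115.7 and 87.3 on the DRlyp/lyp arrays and 63.5 and 43.1 on the DR+/+ arrays. The lower DRlyp/lyp array lay above the higher DR+/+ array, and the mean step was 1.92-fold higher (0.94 ± 0.28, SE; adjusted p = 0.0184, limma). This call was lost without DRlyp/lyp replicate 1 (0.74, adjusted p = 0.205, limma), DRlyp/lyp replicate 2 (1.15, adjusted p = 0.0538, limma) or DR+/+ replicate 2 (0.66, adjusted p = 0.0884, limma), and without the filter (adjusted p = 0.231, limma) or the intensity trend (adjusted p = 0.0658, limma). Adding 50 to every value instead of flooring gave a difference of 0.55, still past the threshold.

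Tnfrsf1a, the main receptor for tumour necrosis factor, read 348.6 and 369.1 on the DRlyp/lyp arrays, against 261.3 and 308.9 on the DR+/+ arrays. The arrays did not overlap, and the difference of 0.34 (95% interval 0.043 to 0.63) was not past the threshold (adjusted p = 0.0662, limma). It passed without DR+/+ replicate 2 (0.46, adjusted p = 0.027, limma), with quantile normalization (0.37, adjusted p = 0.0453, limma) and with the replicate block (adjusted p = 0.0437, limma). Apaf1, the scaffold of the apoptosome, read 661.1 and 556.1 on the DRlyp/lyp arrays and 560.5 and 485.8 on the DR+/+ arrays with its set 1369197_at. These ranges overlapped, and the difference of 0.22 (95% interval -0.045 to 0.48) did not pass the threshold (adjusted p = 0.173, limma). Its other set, 1369198_at, read 27.2 and 21.6 on the DRlyp/lyp arrays, against 16.7 and 20.1 on the DR+/+ arrays, below the filter throughout, and was not tested.

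**Figure D3:**
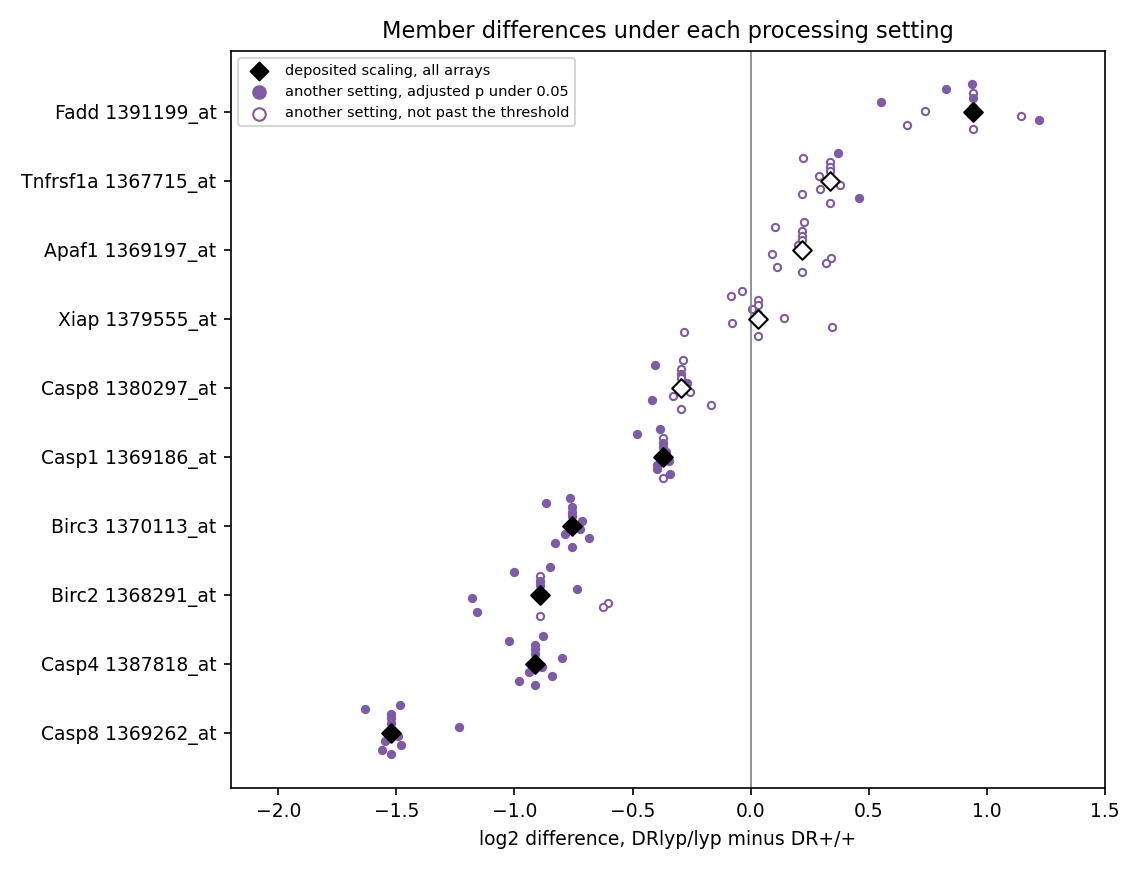
Log2 difference, DRlyp/lyp minus DR+/+, of each tested member probe set as deposited (diamonds) and under each alternative setting (circles, spread vertically for sight), filled where the adjusted p was under 0.05. The sets 1369262_at of Casp8, Casp4 and Birc3 stay filled throughout, Fadd and Birc2 have open circles, and Xiap falls on both sides of 0.

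Several of the lower members lie near each other in the genome. The genes were chosen by family, which can bring in neighbours. Of the 5 genes with a lower set, 4 lie on rat chromosome 8, where Casp1 and Casp4 are neighbours and Birc2 and Birc3 are neighbours, with 0 protein-coding genes between either pair in the RefSeq table of GRCr8. The stretch from Casp1 to Birc3 holds 21 protein-coding genes, most of the rest being matrix metalloproteases, and 9 genes of it were tested. Beside the 4 members these were Mmp12, Mmp8, Tmem123, Dync2h1 and Dcun1d5, of which 3 were lower, 0 higher and 2 not past the threshold. Of all 9349 genes tested by their brightest set, 21.1% were lower. Mmp12 is also among the macrophage markers above, of which 7 of 9 were lower. Mmp12, the macrophage metalloelastase, read 346 ± 41.2 in the DRlyp/lyp pool and 1814 ± 169 in the DR+/+ pool (SD, n = 2 arrays each; log2 difference -2.39), and Tmem123, a membrane glycoprotein, read 2716 ± 29.9 in the DRlyp/lyp pool and 3105 ± 171 in the DR+/+ pool (-0.19). Mmp8, the neutrophil collagenase, read 18.9 ± 11.4 in the DRlyp/lyp pool and 48.1 ± 2.19 in the DR+/+ pool and entered the test through the DR+/+ arrays alone. These genes were looked up after the members' values were seen, and the count is a description of 1 stretch with no test.

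**Figure D4:**
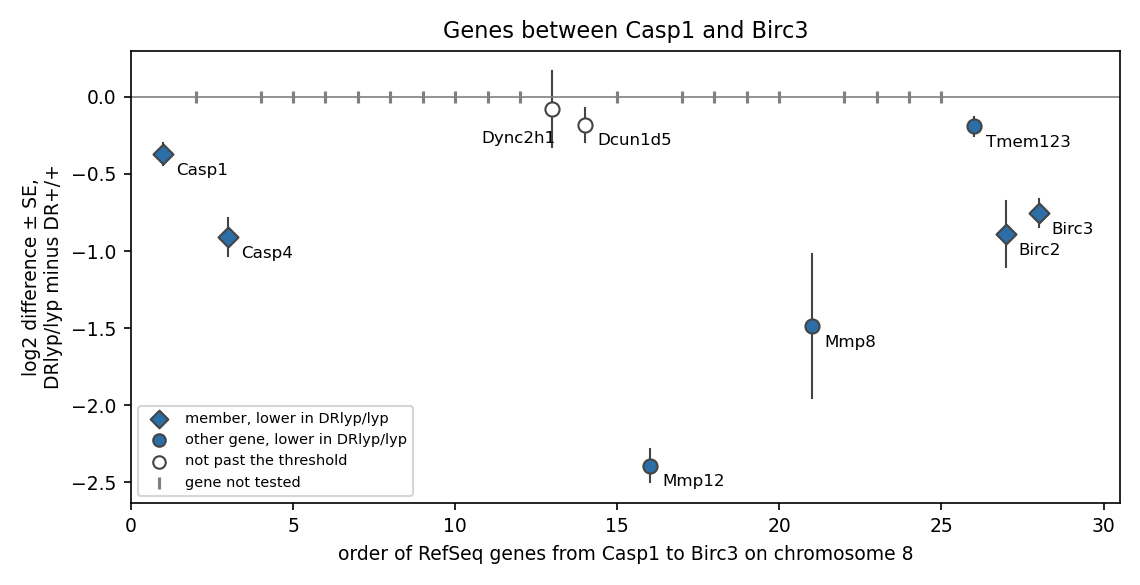
Log2 difference ± SE, DRlyp/lyp minus DR+/+, of the 9 tested genes in the order of RefSeq genes from Casp1 to Birc3 on rat chromosome 8; diamonds are members, filled points passed an adjusted p of 0.05, and grey ticks are genes not tested. All 4 members lie below 0, and Mmp12 (-2.39) lies lowest.

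Casp8 also has a neighbour of its own pathway. Cflar, which encodes the caspase-8-like protein that competes for Fadd, lies beside it on chromosome 9, with 0 protein-coding genes between them. Cflar read 174.4 and 145.5 on the DRlyp/lyp arrays, against 225.5 and 217.1 on the DR+/+ arrays. It was 1.39-fold lower (-0.47 ± 0.16, SE; adjusted p = 0.0377, limma), and it was named after its values were seen. Leaving out any 1 of the 4 arrays ended its call, with differences of -0.34 to -0.60 and adjusted p-values of 0.0656 to 0.278 (limma), and so did quantile normalization (0.0575), no filter (0.160) and no intensity trend (0.0779).

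The wider death machinery was described with 6 lists of 81 genes, of which 57 were tested. In the DRlyp/lyp pool 10 were higher and 20 lower, with 27 not past the threshold and a median log2 difference of -0.10. Over all genes tested 42% were called, 20.9% as higher and 21.1% as lower. Among the 6 lists, lower calls were most frequent in receptor adaptors and kinases, with 11 lower and 2 higher of 19 tested and a median of -0.37. Of these, Traf5, an adaptor of TNF family receptors, read 406.9 and 402.9 on the DRlyp/lyp arrays and 848.8 and 779.1 on the DR+/+ arrays (2.01-fold lower, adjusted p = 1.75e-05, limma). Ripk2, the kinase that relays the NOD receptors, read 140.8 and 151.6 on the DRlyp/lyp arrays, against 253 and 239 on the DR+/+ arrays (1.68-fold lower, adjusted p = 0.0026, limma). The other calls named in this list were Cyld and Traf1 as lower, and Cradd and Traf3 as higher. A further 7 genes, Cflar among them, were lower with log2 differences of -0.34 to -0.62.

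In the list of death receptors and ligands, 2 of 10 tested were higher and 2 lower (median 0.29), with no common direction. The list also held Tnfrsf1b, Ltbr and Cd40, TNF family receptors that are not death receptors. Tnfrsf25, a death receptor found mainly on T cells, read 812.3 and 909.4 on the DRlyp/lyp arrays and 136 and 185.1 on the DR+/+ arrays. It was 5.42-fold higher (2.44 ± 0.15, SE; adjusted p = 4.37e-07, limma), in the pool in which 8 of 10 T cell markers were higher too; the part of T cells in it was not tested. Tnfsf10, the ligand TRAIL, was also called higher, and Fas and Cd40 lower. Tnf, the ligand of Tnfrsf1a, read 173.8 and 198.8 on the DRlyp/lyp arrays, against 152.8 and 119.1 on the DR+/+ arrays, and was not past the threshold (0.46, adjusted p = 0.0682, limma); it lies outside the naming rule and was picked as the ligand of a member.

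Of 6 other caspase and apoptosome genes tested, 2 were higher (Pidd1 and Card10) and 1 lower (Casp2), with a median of -0.05. Of 6 genes tested in the list of other IAPs and their antagonists, 2 were higher and 0 lower (median 0.44). Ube2l3, 1 of the 2, and Arel1, which was not past the threshold, are neither IAPs nor IAP antagonists. Htra2, the mitochondrial protease that displaces IAPs from caspases, read 946.8 and 966 on the DRlyp/lyp arrays and 659 and 710.1 on the DR+/+ arrays (1.40-fold higher, adjusted p = 0.00127, limma), and the ubiquitin-conjugating enzyme Ube2l3 was 1.47-fold higher (adjusted p = 0.000896, limma). Of 8 caspase substrates and death effectors, 1 was higher and 3 lower (median -0.22). Acin1, a nuclear protein of chromatin condensation in apoptosis, was 2.34-fold lower at 189.3 and 197.3 on the DRlyp/lyp arrays, against 474.4 and 430.8 on the DR+/+ arrays (adjusted p = 2.69e-05, limma). Parp1, the DNA repair enzyme cut by caspases, was 1.64-fold lower (adjusted p = 9.93e-05, limma), and Bid, which Casp8 cuts to reach the mitochondria, was 1.40-fold lower (adjusted p = 0.00207, limma). The kinase Pak2 was 1.47-fold higher, at 3526.7 and 3591.7 on the DRlyp/lyp arrays, against 2296.3 and 2550.8 on the DR+/+ arrays (adjusted p = 4.93e-05, limma).

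Of 8 genes tested in the inflammasome list, 1 was higher and 3 lower (median -0.23). The listed sensors Nlrp3, Nlrp1a, Nlrp1, Nlrc4, Nlrp6 and Aim2 were not tested, so the count leaves them out. Il1a, the cytokine interleukin 1 alpha, read 53.6 and 39.5 on the DRlyp/lyp arrays and 111.7 and 129.7 on the DR+/+ arrays (2.62-fold lower, adjusted p = 0.00122, limma). Il1b, a substrate of Casp1, was called higher (0.39, adjusted p = 0.00523, limma), while Nek7 and Panx1 were called lower. Il1b lost its call without DRlyp/lyp replicate 1 (0.34, adjusted p = 0.0928, limma), with centring on the array median (0.28, adjusted p = 0.0591, limma), without the filter (adjusted p = 0.0957, limma) and without the intensity trend (adjusted p = 0.0833, limma). Pycard, the adaptor between inflammasome sensors and Casp1, read 2014.9 and 2106.6 on the DRlyp/lyp arrays and 2088.1 and 1988.6 on the DR+/+ arrays, which overlapped (0.02, adjusted p = 0.874, limma); it was picked as the partner of a member, outside the naming rule.

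**Figure D5:**
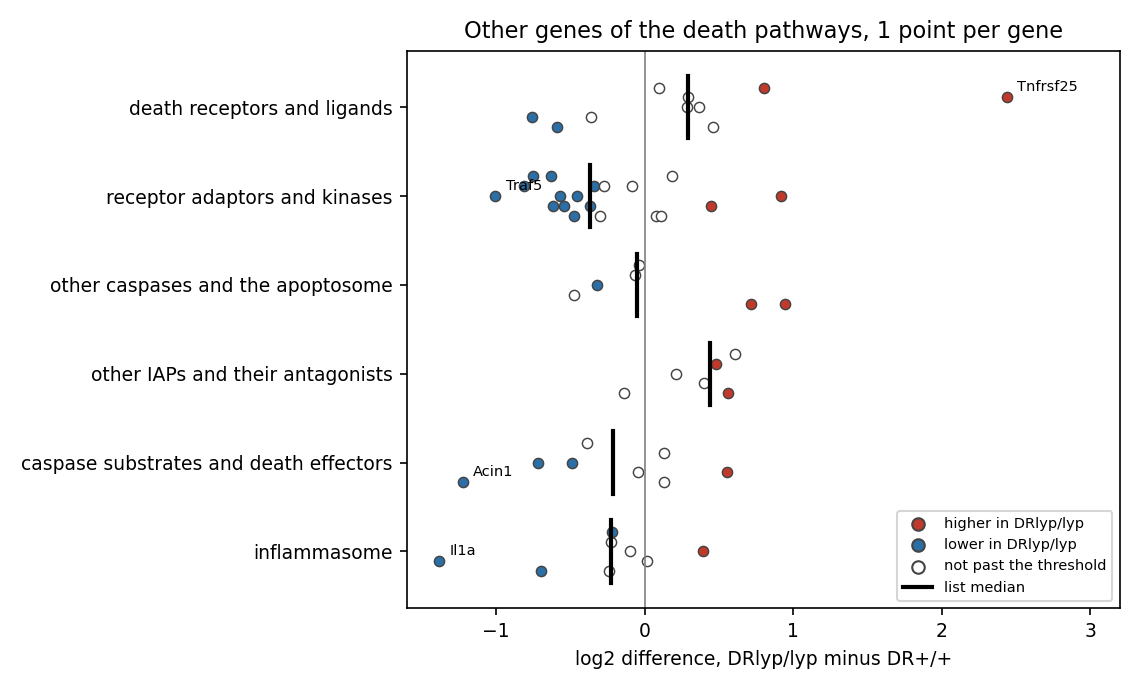
Log2 difference, DRlyp/lyp minus DR+/+, of the 57 tested genes of 6 death pathway lists, 1 point per gene at its brightest probe set; coloured points passed an adjusted p of 0.05 and black bars are list medians. Receptor adaptors and kinases hold 11 lower and 2 higher points, and Tnfrsf25 (2.44) lies farthest right.

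Of the 23 pathway genes named by rule, 10 kept their call with each array left out: Tnfrsf25, Traf5, Ripk2, Htra2, Ube2l3, Acin1, Parp1, Bid, Pak2 and Il1a. Of these 10, Htra2 (adjusted p = 0.0553), Ube2l3 (0.0953), Pak2 (0.0689) and Il1a (0.0913) were not called without the filter on dim probe sets (limma), and Htra2 was not called without the intensity trend either (adjusted p = 0.0502, limma). Over all alternatives, 17 of the 23 lost their call at least once. The 13 that lost it on leaving out an array did so with highest adjusted p-values of 0.0599 to 0.294 (limma). Leaving out DRlyp/lyp replicate 1 ended 12 of these calls, DRlyp/lyp replicate 2 ended 9, DR+/+ replicate 1 ended 5 and DR+/+ replicate 2 ended 7. The count of 30 called pathway genes was 15 without DRlyp/lyp replicate 1 and 19 without DRlyp/lyp replicate 2.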

How the data were processed

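Linear signal intensity was deposited by the authors for each probe set and array. Per the series' design text, RNA was amplified in 2 cycles, labelled with biotin and hybridised to Affymetrix arrays; which program made the signals is not given in the sources used here. On each array the trimmed mean (2%) was 150.1. Groups came from the titles, with DP read as DRlyp/lyp.

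After 57 control sets were left out, values under 6.8 (the 25th percentile over all arrays) were set to it before taking log2. The 16068 sets that exceeded the overall median of 28.3 on 2 or more arrays were tested with limma 3.58.1 in R 4.3.3 (intensity trend, 2 residual degrees of freedom, two-sided, Benjamini-Hochberg, threshold 0.05). Folds are on the floored scale. The test was also run on simulated arrays, and no result here rests on that run. Levels of different probe sets were not compared, except in the Casp8 difference and in summed marker signals. Gene symbols came from the platform annotation; all 9 members had the same symbol in RefSeq's GRCr8 table, used for names, gene order and promoters. Of each pathway list, up to 4 calls each way were named. Members, lists and tests were chosen with earlier results of these data known. Figures used matplotlib 3.10.9.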

Additional observations from a re-analysis of the deposited data

How the results depend on the processing

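The calls depended on how the variance was shared between probe sets and on the filter, and the cause was not tested. Of all probe sets, 6302 were called as reported, 1671 without a filter and 4057 without an intensity trend, with 3478 to 5800 on leaving out each array. Of the member sets 6 were called, 3 without a filter (Casp4, Birc3 and 1369262_at of Casp8), 3 without an intensity trend (the same sets), and 4 to 6 on leaving out an array. Of the pathway genes 30 were called, 8 without a filter, 16 without an intensity trend, and 15 to 25 on leaving out an array. Taking the mean of each gene's probe sets instead of the brightest set gave 23 called pathway genes, 8 higher and 15 lower, all 23 among the 30. No called difference of a member or named pathway gene changed sign under the alternatives run. Centring on the array median moved the median of all probe sets by -0.11, and 36.1% of calls were then higher, against 49.3% as deposited. The members then counted 1 higher and 6 lower. With the replicate block 7044 probe sets, 8 member sets and 31 pathway genes were called; the blocked fit added 1380297_at of Casp8 (adjusted p = 0.0201) and Tnfrsf1a (adjusted p = 0.0437). Deviations of same-numbered arrays correlated at 0.04 between the pools over the tested probe sets, so the replicate block is a weak alternative. It is counted among the alternatives throughout, and whether same-numbered arrays shared a batch was not tested. Precision is limited for the dim sets of Xiap and Fadd.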
